A study of Ovis aries with 18 samples.

Results

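The soleus (SOL), a muscle of the hind limb that works in posture, was compared with longissimus lumborum (LL), the long muscle of the loin, in lambs. The comparison used the 12 libraries labelled SOL 1 to SOL 6 and LL 1 to LL 6, out of 18 in the series. The other 6 libraries, from psoas major, entered no result given here apart from 1 alternative fit. All samples were skeletal muscle of sheep (Ovis aries), taken from the left side of the carcass. The sources used here do not state breed, sex or any age more exact than lamb, and the labels name no treatment. Of 20477 genes in the table, 15442 had a mean of at least 0.1 FPKM over the 12 libraries and were tested. FPKM divides a gene's reads by its length in kilobases and by the library's counted reads in units of 1000000. The study's title concerns long non-coding RNA, but no row of the table is marked as coding or non-coding, so the rows are called genes. In whole muscle, fewer cells of a type and less RNA per cell cannot be told apart. The labels do not state that libraries of a muscle came from separate animals. If some did not, the p-values given here measure only the spread between libraries.

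Skeletal muscles differ in the mixture of their fibres. Slow fibres, which predominate in postural muscles such as the soleus of many mammals, contract slowly, resist fatigue and rely on mitochondria. Fast fibres, which are common in the loin, contract quickly and rely more on glycolysis. The fibre types build their contractile apparatus from different isoforms of myosin, troponin and the calcium pump, and these transcripts are among the most abundant of muscle. The table gives Ensembl sheep identifiers without names, and 0 of the 20477 identifiers matched the RefSeq gene table used. Fibre-type markers and markers of other cell types were therefore not checked, and no gene below is assigned to a fibre type. Abundant genes are described by their rank within a muscle (rank 1 has the highest mean FPKM), their length and their levels.

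The 12 libraries held 10216739 to 14747118 counted reads, with 13087142 ± 990250 in SOL and 11807281 ± 987089 in LL (SD, n = 6 each, exact permutation p = 0.048, adjusted over 7 library measures 0.067). Genes with 1 read or more numbered 15006 ± 432 in SOL and 13733 ± 653 in LL (SD, n = 6 each). LL 3 had the fewest genes of its muscle (12704), SOL 5 the fewest of SOL (14181), and SOL 3 held transcripts that other SOL libraries nearly lacked.

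The muscles differed at many genes, with about 2 higher in SOL for each that was lower. In SOL, 2149 genes were higher (13.9% of those tested) and 1113 lower (7.21%), together 3262 genes or 21.1% (limma on log2(FPKM + 0.1), adjusted p under 0.05, two-sided; such genes are referred to as called). The log2 fold change reached at least 1 in 1313 of the higher genes (8.5% of those tested) and 526 of the lower genes (3.41%). It reached at least 3 in 200 higher (1.3%) and 78 lower genes (0.505%), together 278 genes or 1.8%. The median log2 fold change was 1.22 among the higher genes and -0.96 among the lower ones. The higher genes were less abundant, with a median of 13.6 FPKM over the 12 libraries against 26.7 for the lower genes. All 6 SOL libraries lay above all 6 LL libraries for 1118 genes (7.24% of those tested) and below them for 642 (4.16%).

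**Figure D1:**
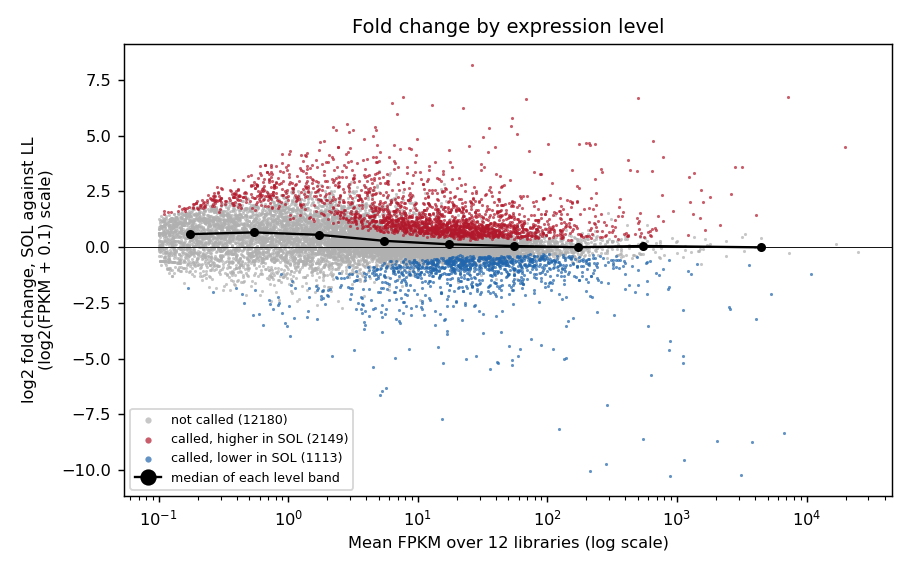
Each point is 1 of the 15442 tested genes, with its mean FPKM over the 12 libraries on a log axis and its log2 fold change of SOL against LL on the vertical axis. Red points are the 2149 genes called higher in SOL, blue points the 1113 called lower and grey points those not called. The black line joins the medians of 9 level bands, which are 0.66 at 0.3 to 1 FPKM, 0.13 at 10 to 30 FPKM and -0.01 at 1000 FPKM or more.

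The direction of the calls depended on how abundant the genes were. Of the genes at 0.1 to 1 FPKM, 8.69% were called, 229 higher and 19 lower in SOL. The tested genes include 301 seen in SOL only and 75 seen in LL only, which passed the filter through 1 muscle. Their part in the calls of this band was not counted. With 1 library left out at a time, the higher calls ranged from 154 to 236. The lower calls were 12 without SOL 1, SOL 2, SOL 4 or SOL 5, and 13 to 27 without any of the other libraries. From 3 to 10 FPKM, 16.9% of 3948 genes were called, 489 higher and 180 lower. From 10 to 30 FPKM, 25.2% of 4004 genes were called, 655 higher and 355 lower. The directions evened out above that level. Among genes at 100 FPKM or more, 53.3% of 685 were called, 181 higher and 184 lower, against the 21.1% of all tested genes. The 59 genes at 1000 FPKM or more split into 17 higher, 17 lower and 25 not called.

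A shift of whole level bands accompanied these calls. For each library, the deviation of every gene from its mean over the 12 libraries was taken on the log2 scale, and its median over a band was compared between muscles by exact two-sided permutation over libraries, with adjustment over 9 bands. At 0.3 to 1 FPKM the median deviation was 0.36 ± 0.38 in SOL and -0.57 ± 0.55 in LL (SD, n = 6 each, exact permutation p = 0.0065, adjusted 0.019). At 1 to 3 FPKM it was 0.33 ± 0.27 and -0.09 ± 0.13 (exact permutation p = 0.0087, adjusted 0.019). At 3 to 10 FPKM it was 0.16 ± 0.18 and -0.07 ± 0.05 (exact permutation p = 0.0065, adjusted 0.019). In each of these bands 5 SOL libraries lay above all LL libraries, and SOL 5 was the exception. SOL 5 and LL 5, which share a number, stood at -0.28 and -0.30 at 0.3 to 1 FPKM. They stood at -0.08 and -0.03 at 1 to 3 FPKM, and at -0.06 and -0.004 at 3 to 10 FPKM. These tests by band did not pair same-numbered libraries. At 10 to 30 FPKM the difference of 0.11 did not pass after adjustment (exact permutation p = 0.037, adjusted 0.066). In the 4 bands from 30 FPKM upward, differences ranged from -0.03 to 0.06, with adjusted p from 0.42 to 0.52.

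**Figure D2:**
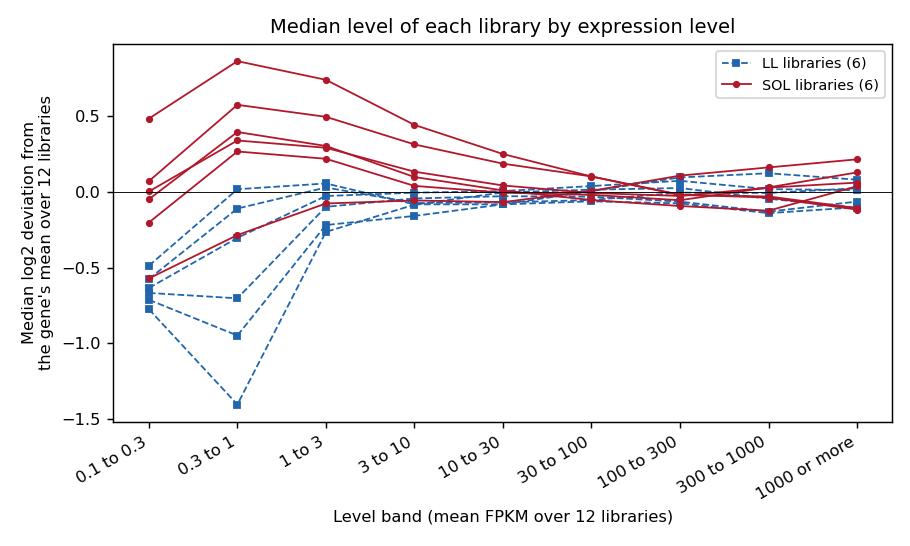
Each line is 1 library, red and solid for SOL and blue and dashed for LL, and shows the median log2 deviation of its genes from their means over 12 libraries in 9 bands of mean FPKM. At 0.3 to 1 FPKM the libraries span -1.40 (LL 3) to 0.87 (SOL 2); from 100 to 300 FPKM they span -0.09 to 0.11 and the muscles overlap.

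SOL 2 and SOL 6 had the highest medians in the low bands. Over all tested genes the median deviation was 0.34 in SOL 2 and 0.24 in SOL 6, between 0.03 and 0.09 in SOL 1, SOL 3 and SOL 4, and -0.07 in SOL 5. LL libraries lay between -0.16 and -0.03. The mean difference between muscles was 0.21 (exact permutation p = 0.0043). A sign-flip over same-numbered SOL and LL libraries, whose numbers the labels do not tie to an animal, gave an exact permutation p of 0.0625. Genes with high levels took fewer reads in the same 2 SOL libraries. The 50 genes with the most reads held 33.0% of the counted reads in SOL 2 and 34.4% in SOL 6, against 38.6% to 40.2% in the other SOL libraries and 38.5% to 42.1% in LL. The part of these shares in the shift was not tested.

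Equal depth left a low-level shift in place among genes with recovered reads. The recovered reads of every library were thinned to 10215927, the lowest total. The difference at 0.3 to 1 FPKM was then 0.94 as before (exact permutation p = 0.0087), and that at 3 to 10 FPKM was 0.23 (exact permutation p = 0.0065). At 0.1 to 0.3 FPKM it was 0.60 as deposited and 0.90 after thinning (exact permutation p = 0.0065), over unlike sets of genes. Thinned libraries still held at least 1 read for 14574 ± 318 genes in SOL and 13572 ± 579 in LL (SD, n = 6 each, exact permutation p = 0.0065). Thinned values cover only the 15312 genes with a value in at least 4 of the 12 libraries. The counts, and the differences in the lowest bands, are therefore not comparable with those before thinning. Genes seen in fewer libraries were outside this check of depth. Scaling changed the balance of the calls. Median-ratio scaling sets the typical gene of each library to a common level. Over all tested genes, the median log2 fold change was 0.24 before scaling and 0.12 after it, a shift of more than 0.1. The calls then numbered 1705 higher and 1466 lower in SOL. The share of calls that were higher was 65.9% as deposited and 53.8% after scaling, and 2817 of the 3262 genes were called in the same direction both ways. At 0.1 to 1 FPKM the scaled calls were still 202 higher and 21 lower. At 3 to 10 FPKM they were 389 higher and 236 lower, at 10 to 30 FPKM 499 higher and 506 lower, and at 100 FPKM or more 140 higher and 212 lower. The excess of higher calls thus ended at 10 to 30 FPKM after scaling.

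Scaling also moved the band medians. The difference between muscles was 0.84 at 0.3 to 1 FPKM, 0.30 at 1 to 3 FPKM and 0.11 at 3 to 10 FPKM after scaling (exact permutation, adjusted p = 0.016 in each). At 10 to 30 FPKM it turned from 0.11 to -0.011 (exact permutation, adjusted p = 0.016), and at 30 to 100 FPKM from 0.04 to -0.088 (exact permutation, adjusted p = 0.049). In these 2 bands the sign of the difference was not the same as deposited and after scaling. Scaling aligns the typical genes of the libraries, and it left little spread at 10 to 30 FPKM. There the SD over libraries was 0.007 in each muscle, against 0.12 in SOL and 0.04 in LL as deposited. The p of that band after scaling is set against this narrowed spread, so it does not show a reversal between muscles.

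LL libraries were more scattered than SOL libraries at low levels. Scatter was taken for each library as the median absolute log2 deviation of its genes from the mean of the other libraries of its muscle. At 1 to 3 FPKM it was 0.95 in LL (0.77 to 1.31) and 0.58 in SOL (0.48 to 0.73), and the muscles did not overlap (exact permutation p = 0.0022, the smallest it can give, adjusted over 9 bands 0.0097). At 0.3 to 1 FPKM it was 1.26 in LL and 0.91 in SOL (exact permutation p = 0.0043, adjusted 0.013). At 3 to 10 FPKM it was 0.46 and 0.35 (exact permutation p = 0.022, adjusted 0.049), which did not pass without SOL 1, SOL 3, SOL 4 or SOL 6 (exact permutation p from 0.065 to 0.087). From 10 FPKM upward the scatter of LL was at most 0.30 on average and the adjusted p ranged from 0.086 to 0.76. At 0.1 to 0.3 FPKM, where many LL values are 0, the order was the opposite, with 0.72 in LL and 0.94 in SOL (exact permutation p = 0.0022, adjusted 0.0097). LL libraries also had fewer genes detected on average, and the part of this in the scatter was not tested.

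Libraries of one muscle shared 81.2% to 90.8% of their FPKM composition in LL and 85.2% to 91.0% in SOL. A SOL and an LL library shared 64.2% to 70.0%. This measure sums, over all genes, the smaller of a gene's shares in the 2 libraries. No pair between muscles reached the lowest pair within a muscle. Genes called lower in SOL made up 34.0% ± 1.36 of summed FPKM in LL, compared with 10.3% ± 0.53 in SOL (SD, n = 6 each). Genes called higher made up 11.7% ± 0.99 in LL and 36.7% ± 1.18 in SOL. These shares describe the calls, which were chosen on the same values. The 12180 genes not called held about equal shares, 54.3% in LL and 53.0% in SOL.

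Abundance ranks differed as well. The 10 most abundant genes of SOL and of LL shared 4 members, and the 100 most abundant shared 60. The union of the lists of 10 held 16 genes, of which 5 rose and 7 fell in SOL. The union of the lists of 100 held 140 genes, of which 89 were called, with 45 rising and 44 falling, which is 63.6% against 21.1% of all tested genes. A log2 fold change of at least 2 was reached by 20 of the higher and 23 of the lower genes among these 140 (over all tested genes 3.83% were called higher and 1.17% lower at that size). Being abundant in only 1 muscle is itself a difference, so these shares describe the choice of genes as well as the muscles. When genes were ranked by reads instead of FPKM, the 100 most abundant genes shared 64 members, and 90 of 136 were called, 45 in each direction.

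**Figure D3:**
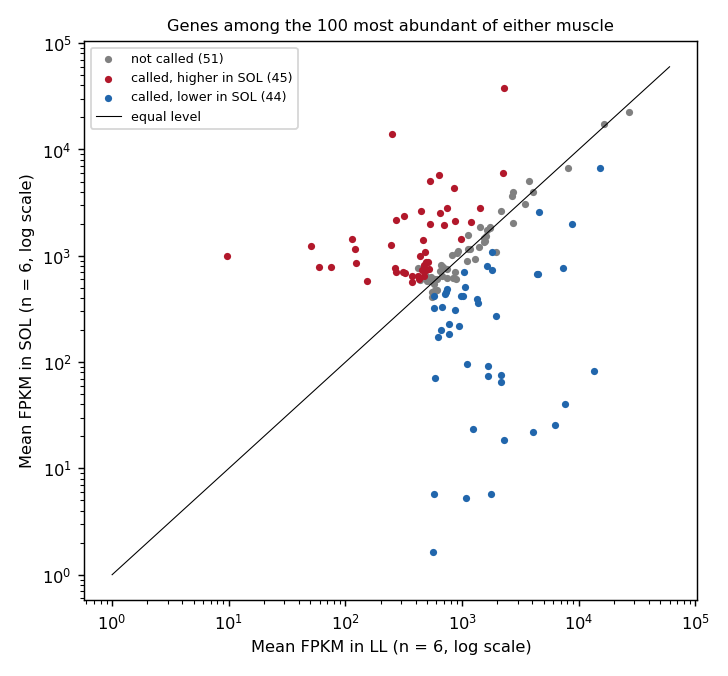
Each of the 140 points is a gene among the 100 most abundant of SOL or LL, with its mean FPKM in LL and in SOL (n = 6 each) on log axes. Red genes were called higher in SOL (45), blue genes lower (44), and grey genes were not called (51); the line marks equal levels. A group of blue points lies below 100 FPKM in SOL at more than 1000 FPKM in LL.

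The most abundant gene of SOL was ENSOARG00020015986 (685 bp). Its level was 30773 FPKM in the lowest SOL library, 34374 at the median and 51408 in the highest, SOL 5. In LL it was 337 FPKM in the lowest library (LL 5), 1706 at the median and 6119 in the highest (LL 2). All SOL libraries thus lay above all LL libraries, while the LL libraries themselves ranged widely. The log2 fold change was 4.51 (SE 0.54, limma adjusted p = 2.3e-05). The gene held 6.66% ± 1.12 of summed FPKM in SOL and 0.42% ± 0.36 in LL (SD, n = 6 each), and it ranked 20 in LL. By reads, which do not correct for length, it ranked 5 in SOL and 62 in LL.

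ENSOARG00020004484 (802 bp), at rank 4 in SOL, ranked only 241 in LL. Its lowest, median and highest SOL libraries held 11268, 12479 and 21477 FPKM. The LL libraries held 24.8 FPKM at the lowest (LL 5), 171 at the median and 778 at the highest (LL 2). The groups did not overlap, and the highest SOL library was again SOL 5. The log2 fold change was 6.72 (SE 0.68, limma adjusted p = 3.9e-06).

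Among genes lower in SOL, ENSOARG00020006864 (1272 bp, rank 3 in LL and 5 in SOL) was the most abundant under the rule for naming. It ranged from 12779 to 18819 FPKM in LL, with a median of 14799, and from 5382 to 9764 FPKM in SOL, with a median of 6247. Its groups did not overlap, but the change was modest for so abundant a gene. The log2 fold change was -1.19 (SE 0.32, limma adjusted p = 0.016). The call was lost after median-ratio scaling (log2 fold change -1.31, limma adjusted p = 0.0501) and when all detected genes were tested (limma adjusted p = 0.070). Of 11 alternative fits, 8 kept the call, with limma adjusted p = 0.0008 when only genes averaging 1 FPKM or more were tested.

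ENSOARG00020010502 (rank 4 in LL) had a recovered length of only 96 bp, shorter than the RNA fragments of about 300 bp that the protocol describes. It ranged from 7443 to 25940 FPKM in LL, with a median of 11875 and LL 6 at the top. In SOL it ranged from 9.89 to 348 FPKM, with a median of 29.1 and SOL 3 at the top. Every SOL library was far below every LL library. The log2 fold change was -8.33 (SE 0.62, limma adjusted p = 1.6e-07), and -8.96 without SOL 3. Division by the short length raised its FPKM rank: it had 15175 reads per LL library on average and ranked 73 in LL by reads.

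**Figure D4:**
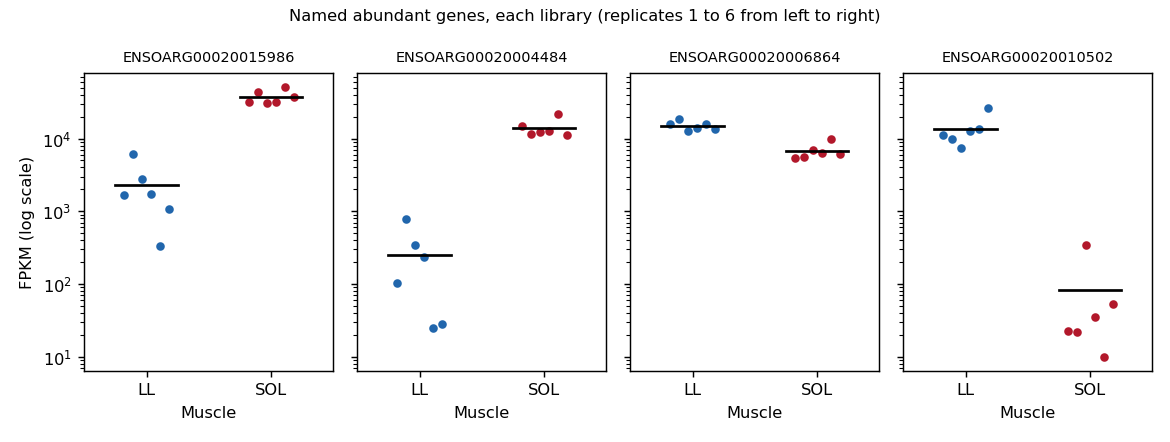
Points are the FPKM of each library on a log axis, LL in blue and SOL in red, for the 4 named genes, with black bars at the mean of 6 libraries. The 2 genes on the left were higher and the 2 on the right lower in SOL. ENSOARG00020006864 differs the least, and SOL 3 is the highest SOL library for ENSOARG00020010502 at 348 FPKM.

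Other genes that were abundant in LL fell in SOL to very different levels. The genes at LL ranks 7, 9 and 14 (689, 5935 and 708 bp) were nearly absent from SOL. Rank 7 fell from 7553 ± 1747 FPKM in LL to 40.4 ± 71.2 in SOL, rank 9 from 6241 ± 905 to 25.7 ± 55.5, and rank 14 from 4047 ± 524 to 22.2 ± 38.0 (SD, n = 6 each). The SOL means rested on SOL 3. Without it they were 11.4, 3.10 and 6.75 FPKM, and the log2 fold changes moved from -8.75, -10.21 and -8.69 to -9.43, -11.16 and -9.36. The genes at LL ranks 5, 8, 11 and 12 (1035, 1505, 3249 and 2884 bp) kept a substantial level in SOL. Rank 5 fell from 8701 ± 700 to 2010 ± 255 FPKM, with log2 fold change -2.12 ± 0.22 (SE; limma adjusted p = 4.4e-06). Rank 8 fell from 7307 ± 950 to 776 ± 98.7 FPKM, with log2 fold change -3.23 ± 0.19 (SE; limma adjusted p = 1.3e-08). Ranks 11 and 12 fell from 4500 ± 442 to 673 ± 191 and from 4347 ± 353 to 673 ± 93.6 FPKM. For these 4 genes all SOL libraries lay below all LL libraries. Other genes of the LL top 50 lay in between by fold: those at LL ranks 23, 24, 33, 34 and 47 were 18.2-fold to 52.6-fold lower in SOL, at 23.5 to 91.3 FPKM. The genes at LL ranks 21 and 30 were 123-fold and 306-fold lower, at 18.4 and 5.77 FPKM in SOL. Without SOL 3 these 2 SOL means were 1.52 and 0.709 FPKM.

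On the SOL side, the genes at ranks 8, 10 and 11 (5985, 685 and 1409 bp) rose from a level that was already substantial in LL. Rank 8 had 5704 ± 648 FPKM in SOL and 639 ± 476 in LL (SD, n = 6 each), with log2 fold change 3.57 ± 0.46 (SE; limma adjusted p = 4.2e-05). Rank 10 had 5057 ± 2397 FPKM in SOL, where SOL 5 held 9928 FPKM, and 534 ± 405 in LL, with log2 fold change 3.57 ± 0.48 (SE; limma adjusted p = 6.0e-05). Rank 11 stood at 4388 ± 1092 and 851 ± 288 FPKM, with log2 fold change 2.39 ± 0.25 (SE; limma adjusted p = 5.8e-06). Rank 7 changed less, from 2228 ± 400 FPKM in LL to 5978 ± 856 in SOL (log2 fold change 1.43). By reads, rank 8 was the third gene of SOL, since it is long. In all 4 genes the SOL and LL libraries did not overlap.

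Other abundant genes passed no test of a difference. The first gene of LL (1170 bp, rank 2 in SOL) held 26862 ± 4986 FPKM in LL against 22631 ± 2970 in SOL (SD, n = 6 each), with log2 fold change -0.24 ± 0.47 (SE; limma adjusted p = 0.76). LL rank 2 (664 bp, rank 3 in SOL) stood at 16434 ± 6200 and 17498 ± 3633 FPKM, with log2 fold change 0.15 ± 0.42 (SE; limma adjusted p = 0.84). Rank 6 in both muscles was a gene of 1692 bp at 8061 ± 976 FPKM in LL against 6649 ± 807 in SOL, with log2 fold change -0.28 ± 0.27 (SE; limma adjusted p = 0.51). In total, 22 genes were among the 50 most abundant of both muscles and not called, with log2 fold changes from -0.78 to 0.58, and the muscles overlapped in 20 of them. For the first 2 genes the standard error exceeded the log2 fold change, so these values do not show that their levels were equal. In limma, the variance of each gene is drawn toward a trend over genes of like level. These standard errors are therefore not the genes' own spread alone, and a missing call can come from that trend as well as from scatter between libraries.

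Of the 50 most abundant genes of SOL, 15 were called higher by a log2 fold change of at least 2. Over the 6 LL libraries these 15 genes ranged by a median factor of 5.47 between the highest and the lowest library, against 1.63 within SOL. The 24 genes of the SOL top 50 that were not called ranged by 1.48 over the LL libraries. LL 2 was the highest LL library for 12 of the 15 genes, and LL 5 the lowest for 10. Among the 24 genes not called, LL 2 was also the highest for 11, though the lowest for 6, and LL 5 was the lowest for 1. A high place of LL 2 was thus not confined to the genes higher in SOL. Their summed level was 16933 FPKM in LL 2, 9220 in LL 3, 5681 to 6827 in LL 1, LL 4 and LL 6, and 3181 in LL 5. The ratio of LL 2 to LL 5 was above 1 for 14 of the 15 genes, with a median of 4.01 and a highest value of 31.3. LL 2 stood out at lower ranks too: of 15 genes at SOL ranks 51 to 200 with a rise of that size, LL 2 was the highest LL library for 14. LL 2 also had the highest median deviation of the LL libraries over genes at 100 FPKM or more (0.10). Its FPKM summed over all genes was the highest of LL as well (563884). Genes of 1 library are not independent, so these counts describe LL 2 as 1 library. The 30 genes higher in SOL were chosen on the fold between muscles, and the order of LL libraries was not part of that choice. Without gene names, no marker of a fibre or cell type could be set beside this order, and its cause was not tested.

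The reverse set pointed to 1 SOL library. Of the 50 most abundant genes of LL, 16 were called lower by a log2 fold change of at least 2, and SOL 3 was the highest SOL library for 13 of them. SOL 3 exceeded the next SOL library more than 2-fold for 7 of the 16. The summed level of the 16 genes was 6591 FPKM in SOL 3 and 4146 to 5428 in the other SOL libraries. For the 23 genes of the LL top 50 that were not called, SOL 3 was the highest SOL library for 2 and SOL 5 for 8. Over the SOL libraries the 16 genes ranged by a median factor of 3.82 between the highest and the lowest library, against 1.58 within LL. At LL ranks 51 to 200, SOL 3 was the highest SOL library for 5 of 11 genes lower by that size. These 11 genes were not more uneven in SOL, where they ranged by a median factor of 1.74, than in LL, where the factor was 1.78.

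**Figure D5:**
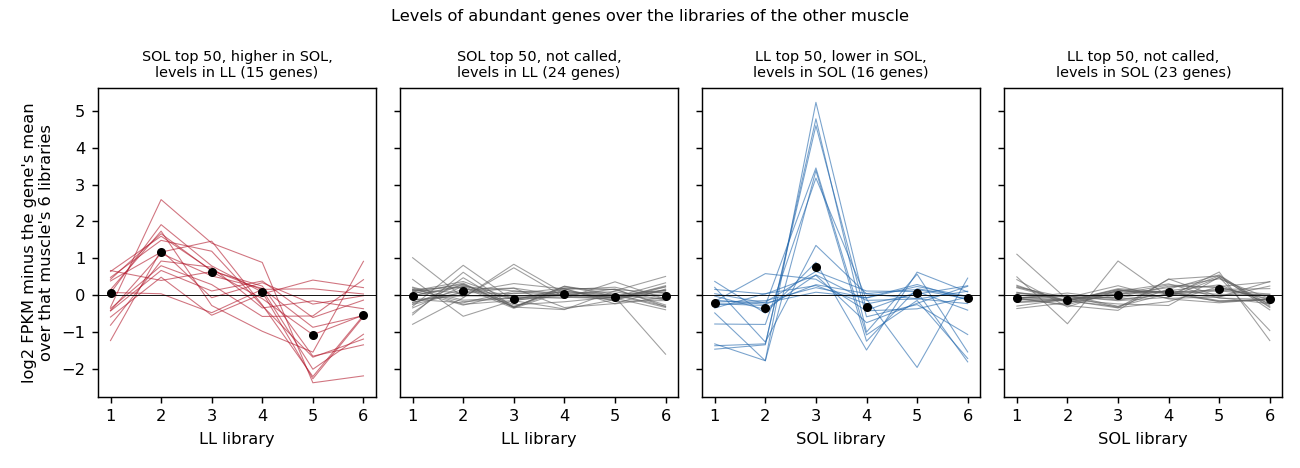
Each thin line is 1 gene, plotted as log2 FPKM minus its mean over the 6 libraries of the muscle named under the panel, and black points are medians over genes. From left to right are the 15 SOL top 50 genes higher in SOL and the 24 not called, over LL libraries, and the 16 LL top 50 genes lower in SOL and the 23 not called, over SOL libraries. LL 2 is high and LL 5 low in the first panel, and SOL 3 is high in the third.

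The concentration of the transcriptome in few genes did not differ clearly between the muscles. The 10 most abundant genes of each library held 22.6% ± 2.23 of summed FPKM in SOL and 21.2% ± 1.15 in LL (SD, n = 6 each, exact permutation p = 0.22). SOL 5 stood highest at 26.9%. The first gene alone held 6.66% ± 1.12 in SOL and 5.30% ± 0.44 in LL (exact permutation p = 0.022, 0.087 after adjustment over 8 measures of concentration). The 100 genes with the most reads held 43.5% ± 3.12 of reads in SOL and 46.8% ± 1.34 in LL (exact permutation p = 0.019, adjusted 0.087). Neither of the last 2 differences passed after adjustment.

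The calls were also split by gene length among genes at 10 FPKM or more. Of 1825 such genes under 1000 bp, 296 were called higher and 235 lower in SOL, with a median log2 fold change of 0.07. Of 674 genes of 4000 bp or more, 143 were higher and 64 lower, with a median of 0.13. Taken per library, the median deviation of the long genes minus that of the short genes was 0.02 ± 0.18 in SOL and -0.07 ± 0.16 in LL (SD, n = 6 each), a difference within the spread of the libraries (exact permutation p = 0.37).

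Detection in every library of one muscle and in none of the other was rare. A value above 0 in all 6 SOL libraries and 0 in all 6 LL libraries was found for 29 genes, with mean SOL levels of 0.168 to 4.64 FPKM and a median of 0.891. The reverse held for 4 genes, at 1.28 to 10.5 FPKM in LL. Of the 29 genes, 27 reached the mean of 0.1 FPKM needed for testing, and all 27 were called. Their choice fixed this outcome. Under a looser pattern, 1260 genes had a value in 1 or more SOL libraries and 0 in all 6 LL libraries, and 290 genes the reverse. Of these, 301 and 75 were tested, and they passed the filter through 1 muscle alone. By contrast, 11479 genes had a value above 0 in all 12 libraries and 3365 in none.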

How the data were processed

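Total RNA was extracted, ribosomal RNA depleted and cDNA made with random hexamers, per the labels' protocols, which also name HISAT2 (2.2.1) for alignment and StringTie (2.2.0) for assembly. DESeq is also named, with no role, per the submitters' processing notes. Genome build, annotation, counting program and strand setting were not given in the sources used here. FPKM is the unit of the table deposited by the authors, as read from its values; the file header names none. Whole reads, gene lengths and library totals were recovered from the steps between values (15312 genes with a value in at least 4 of the 12 libraries, all values within 0.01 of a whole read). The recovered reads summed to 99.97% to 99.99% of each library total. Lengths of genes with few reads are approximate. Genes averaging 0.1 FPKM or more in the 12 libraries were tested by limma (3.58.1, R 4.3.3) on log2(FPKM + 0.1), with the variance trend, 10 residual degrees of freedom, without a block, and Benjamini-Hochberg adjustment over 15442 genes. This scale understates changes of low genes. Values per library were compared by exact two-sided permutation, which cannot give a p under 0.0022. Scripts were tested on simulated data. Genes named by identifier had to be called, change by a log2 fold of at least 1 and not overlap; the 2 most abundant in SOL among the higher and the 2 most abundant in LL among the lower were named. The members, bands and rules were chosen with earlier results of these data known. Alternatives were a replicate block, other pseudocounts, filters, scaling, a fit on 18 libraries and left-out libraries. Thinning to equal reads, limma's voom on recovered reads, scaling with the block, and a fit lacking LL 3, SOL 3 and SOL 5 were chosen after seeing the data.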

Additional observations from a re-analysis of the deposited data

Results flagged for a closer look

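The highest and the lowest of the 6 libraries of each muscle were compared with the rest by Dixon's test for the library measures, the level bands and the named genes. Of 46 sets tested, 8 had a library that stood apart, where chance would give about 2.3 for independent sets; several of these sets share the same libraries and genes. SOL 5 stood apart in 6 of them. It had 14181 genes detected against 14959 or more. After thinning, which covers only genes with recovered reads, it had 13950 against 14576 or more. Its 10 most abundant genes held 26.9% of summed FPKM against 23.0% or less. Its median deviation at 100 to 300 FPKM was 0.109 against -0.017 or less. It held 21477 FPKM of ENSOARG00020004484 against 14960 or less, and 9764 FPKM of ENSOARG00020006864 against 6976 or less. ENSOARG00020010502 stood apart in LL 6, at 25940 FPKM against 13467 or less, and in SOL 3, at 348 FPKM against 53.1 or less. The causes were not tested.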

How the results depend on the processing

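The count of 3262 called genes ranged from 2797 to 3926 under the alternatives and from 2632 to 3245 with each library left out. The corresponding ranges with a library left out were 1624 to 2157 for higher calls, 945 to 1096 for lower calls, 166 to 248 at 0.1 to 1 FPKM, 334 to 361 at 100 FPKM or more, and 82 to 89 among the 100 most abundant genes of either muscle. Without LL 3, SOL 3 and SOL 5 together, calls at 0.1 to 1 FPKM numbered 165 instead of 248. No alternative turned the direction of a shared call. The replicate numbers did not meet the rule for pairing. Same-numbered SOL and LL libraries correlated in their deviations at r from 0.085 to 0.18, with 4 of 6 above 0.1. Other pairs correlated lower, at r from -0.11 to 0.052, and all 12 libraries correlated best with their own number. The unpaired tests given here leave this likeness aside. With the replicate block 3461 genes were called, 2295 of them higher and 1166 lower in SOL. The median deviation over all genes differed by 0.21 between muscles, and by 0.162 to 0.246 with a library left out. After median-ratio scaling the difference was 0.089. A sign-flip over the same-numbered pairs, as the replicate block, gave the same 0.21 with an exact permutation p of 0.0625. The share held by the 10 most abundant genes differed by 1.37 percentage points, 0.504 to 1.69 with a library left out, and by -0.21 for the 100 most abundant genes (exact permutation p = 0.89). The call of ENSOARG00020006864 was lost under no filter and under median-ratio scaling with or without the replicate block. Depth limits statements on genes under about 1 FPKM, since a single read over 1 kb corresponds to as much as 0.098 FPKM.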
